A study of Ovis aries with 20 samples.

Results

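The left ventricle of newborn lambs was compared between the offspring of cortisol-infused ewes and those of vehicle-infused ewes. The comparison used the 10 arrays whose titles give left ventricle, telemetry and newborn, 5 labelled control and 5 labelled cortisol, out of 20 arrays in the series. The other 10 arrays hold the interventricular septum and were used only where stated. All lambs were singletons. The ewes received cortisol at 1 mg/kg/day, or vehicle, from about gestation day 115 to birth, with 5 lambs in each group, and the heart was taken between 10 and 480 min after birth. The labels used here do not give the time for each lamb, and the controls also went through birth and the infusion of vehicle. The infusion was given to the ewe, so the cortisol that reached each lamb is not stated in the sources used here.

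Cortisol is the main glucocorticoid of sheep. It acts through the glucocorticoid receptor, NR3C1, and can also bind the mineralocorticoid receptor, NR3C2. The enzyme HSD11B2 inactivates cortisol inside cells and HSD11B1 regenerates it. Around birth, cortisol normally rises in the fetus, and the heart muscle at the same time leaves the cell cycle, matures its contractile apparatus and turns from glucose towards fatty acids as fuel. The comparison asks how more maternal cortisol in late gestation alters the transcripts of the newborn ventricle.

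Expression was read on one-colour Agilent sheep arrays. Values below are log2 of the scanner's processed signal minus the 75th percentile of that array, so 0 is the array's 75th percentile, and a difference of 1 is 2-fold. Levels of different probes are not comparable with each other, and where a gene has several probes the brightest on average stands for it. Heart muscle transcripts were present: transcripts of the slow myosin MYH7 and the tropomyosin TPM1 gave signal well above background on 10 of 10 arrays. Only 3 of 23 genes on the list of cardiomyocyte markers could be tested, those 2 and MB, myoglobin. Between 60.5% and 70.9% of spots on control arrays, and between 57.9% and 70.3% on cortisol arrays, stood clear of background by the scanner's test. The arrays' 75th percentiles, in intensity units, spanned 103 to 266 in control and 99.2 to 402 in cortisol.

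The arrays lay on 3 slides. Slide 3 held control 1, 2 and 4 and cortisol 1, 2 and 3, slide 2 held control 3 and 5 and cortisol 5, and slide 4 held cortisol 4. On the first principal component of 9677 probes, with 27.4% of the variance, the 5 control arrays lay between -2.6 and 19.3. The cortisol arrays lay outside that range on either side: cortisol 1, 2 and 3 at -14.9, -37.4 and -56.9, and cortisol 5 and 4 at 25.0 and 44.7. The cortisol arrays thus lay on both sides of the controls, those of slide 3 on one side and those of slides 2 and 4 on the other. The controls did not divide in that way, with those of slide 3 at -2.6 to 19.3 and those of slide 2 at 5.9 and 13.9. The axis also followed array brightness, though not in exact order. Its left end held dim arrays, with 75th percentiles of 99.2 (cortisol 3), 110 (cortisol 2) and 99.8 (cortisol 1). Its right end held the brightest, 402 (cortisol 4) and 272 (cortisol 5). Of the controls, control 1 was dimmest (103) and farthest left, and control 4 brightest (266) and farthest right. Control 3 (128) lay right of control 2 (196). The part of brightness was not tested. Values within slide 3 (3 against 3) and within slide 2 (cortisol 5 against 2 controls) are given for many of the results below. Of 104 named genes with a value on both slides, 65 had the same sign on both and 39 had opposite signs. The part of slide was not tested beyond those values and a fit with slide as a block.

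**Figure D1:**
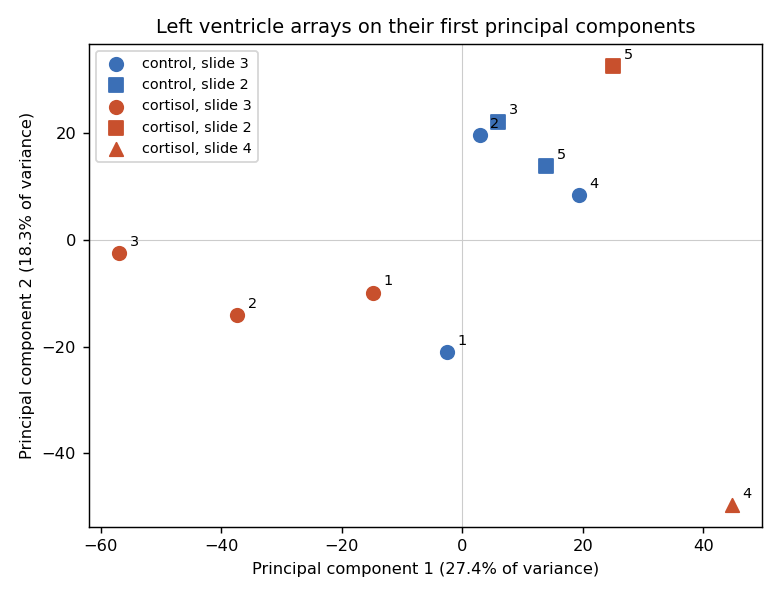
Each point is 1 left ventricle array on the first principal component (horizontal, 27.4% of the variance) and the second (vertical, 18.3%), numbered by lamb within its group. Colour gives the treatment and the symbol the slide. The 5 controls sit between -2.6 and 19.3 on the horizontal axis, with cortisol 1, 2 and 3 to their left and cortisol 4 and 5 to their right.

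Each probe is 60 bases long, and the stretch it reads decides what a value can say about a gene. The probes of 8 genes described below are shown because they lie within, or end at the close of, the reading frame, so they read the protein-coding messenger RNA. Capitals mark a stop codon, and the bases after it are left out.
NR3C1: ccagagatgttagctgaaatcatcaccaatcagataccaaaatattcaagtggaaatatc
IGF1: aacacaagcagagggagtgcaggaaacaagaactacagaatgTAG
CALM2: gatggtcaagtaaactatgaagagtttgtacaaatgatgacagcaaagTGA
BGN: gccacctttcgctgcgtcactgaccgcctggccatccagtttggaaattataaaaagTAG
INHBA: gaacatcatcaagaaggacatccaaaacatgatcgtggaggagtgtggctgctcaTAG
TNNC2: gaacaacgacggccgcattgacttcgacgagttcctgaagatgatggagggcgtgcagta
FZD2: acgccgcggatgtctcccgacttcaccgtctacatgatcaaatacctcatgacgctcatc
ITGA4: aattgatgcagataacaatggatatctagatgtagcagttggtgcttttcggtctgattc

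No transcript passed the test: of 9791 probes tested, 0 (0.00%) differed between cortisol and control at a Benjamini-Hochberg adjusted p under 0.05 in limma, and the lowest adjusted p was 0.877. At an unadjusted p under 0.05 there were 508 probes (5.19%), 258 with the higher mean after cortisol (2.64%) and 250 with the lower (2.55%). The 5 cortisol values lay wholly above or wholly below the 5 control values for 72 probes (0.735%). Every difference given below is thus a value that did not pass the test. Over all probes the median difference was -0.01 on the log2 scale and 49.1% were above 0. Among the 613 genes that could be named and tested, 62.0% were above 0, with a median of 0.09, 4.08% had an unadjusted p under 0.05 and 0.489% had groups that did not overlap. Counts in gene lists are to be read against these shares. The list medians rested on few lambs: leaving out 1 array at a time moved the median of 40 of 41 lists by over 1.5 times in at least 1 case and turned its sign for 14, and slide 2 alone turned it for 26.

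The cortisol lambs varied more than the controls. The median standard deviation over the 5 arrays of a group was 0.30 in control and 0.47 in cortisol on the log2 scale, and the cortisol value was the larger for 7394 of 9791 probes (75.5%). Without cortisol 4, the only array on slide 4, the cortisol median was 0.40. With 5 lambs a group, the standard error of a difference had a median of 0.26, and its 95% confidence interval reached 0.57 to each side for the median probe. Differences smaller than that could not be separated from 0 for such a probe even before adjustment for the number of probes. Larger ones did not pass the adjusted test either: 177 probes differed by more than 2-fold and 0 passed.

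Among the 20 named genes with the smallest unadjusted p (0.00179 to 0.0397 in limma), 14 had the higher mean after cortisol and 6 the lower, and the groups did not overlap for 3 of them. The 14 included NFIL3, a transcription repressor tied to the circadian clock, the growth factor IGF1, the growth hormone receptor GHR, the calmodulin gene CALM2, the glucocorticoid receptor NR3C1 and the clock gene PER2. The 6 were ITGA4, TIE1, CYBB, IRF3, SNRPA and ATP6V1B2, which act in cell adhesion, blood vessels, phagocytes, antiviral signalling, splicing and organelle acidification.

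NFIL3 had the smallest unadjusted p of any named gene. Its values were -4.39, -2.79, -3.93, -5.55 and -3.71 in control 1 to 5 and -2.87, -2.19, -1.15, -1.91 and -2.61 in cortisol 1 to 5. All 5 cortisol values exceeded the control mean, and control 2 was the only control within the cortisol range. The log2 difference was 1.93 ± 0.48 (SE, n = 5 per group), or 3.81-fold (95% interval 1.85 to 7.84). Signal cleared background on 3 of 5 arrays in control and 5 of 5 in cortisol. The difference was 2.17 within slide 3, 1.21 within slide 2 and 1.88 with slide as a block. PER2, a core repressor of the clock, was at -2.22, -3.16, -3.52, -2.51 and -3.42 in control and at -2.47, -2.02, -2.45, -2.19 and -2.49 in cortisol. The cortisol lambs were close together, near the top of the wide control range, and the difference was 0.64 ± 0.27, with 0.31 within slide 3 and 0.98 within slide 2.

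The receptor for cortisol itself was among these genes. NR3C1 was at -0.22, -1.33, -1.68, -1.46 and -1.03 in control 1 to 5 and at -0.42, -0.56, 0.01, -0.90 and -0.54 in cortisol 1 to 5. Control 1 was exceeded only by cortisol 3, and the other controls lay below all 5 cortisol lambs. The difference was 0.66 ± 0.28 (1.58-fold, 95% interval 1.04 to 2.42), with 0.68 within slide 3 and 0.82 within slide 2.

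Growth factors and their receptors were among the 20. IGF1, which drives growth of fetal heart muscle, was at -1.38, -2.06, -2.44, -2.21 and -2.36 in control and at -0.69, -0.10, 0.50, -1.07 and -2.03 in cortisol. Cortisol 5 stayed within the control range and the other cortisol lambs lay above it. The difference was 1.41 ± 0.42 (2.66-fold, 95% interval 1.41 to 5.01), 1.79 within slide 3 and 0.37 within slide 2. GHR, which induces IGF1 in many tissues, was at -0.52, -1.16, -2.82, -1.44 and -0.82 in control and at -0.17, -0.05, 0.20, -1.08 and -0.82 in cortisol, a difference of 0.97 ± 0.41 that was 1.04 and 1.01 within slides 3 and 2 and 0.60 without control 3. INHBA, the activin A subunit, was at -2.75, -1.79, -2.78, -2.36 and -3.0 in control and at -1.09, 0.19, 0.72, -1.22 and -3.24 in cortisol. Here cortisol 5 was the lowest of all 10 arrays while the other cortisol lambs were the highest, so the difference of 1.60 ± 0.62 was 2.24 within slide 3 and -0.35 within slide 2. VEGFA, the main endothelial growth factor, differed by 0.76 ± 0.32, and 3 cortisol lambs (1, 3 and 4, at 2.71, 2.42 and 2.52) exceeded the highest control value of 1.75. The VEGFA difference was 0.94 within slide 3 and 0.066 within slide 2.

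The calcium sensors CALM2 and TNNC2 had higher cortisol means. CALM2, which encodes calmodulin, was at 1.49, 0.50, 0.39, 0.50 and 1.01 in control and at 1.43, 1.54, 1.63, 2.72 and 1.56 in cortisol. Control 1 alone reached the cortisol range. The difference was 1.00 ± 0.30 (2.00-fold, 95% interval 1.27 to 3.13), 0.70 within slide 3, 0.86 within slide 2 and 0.76 without cortisol 4. TNNC2, which encodes the fast-muscle form of troponin C, was at -1.87, -1.65, -1.47, 0.45 and -1.90 in control and at -1.94, 1.18, 0.91, 2.53 and 0.88 in cortisol. The lambs fell into a low and a high set, with 1 of 5 controls and 4 of 5 cortisol lambs in the high set, and the mean difference was 2.00 ± 0.73, with 1.07 within slide 3 and 2.57 within slide 2.

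BGN, NUDT16 and FZD2 had small spreads and values that barely met or did not overlap. BGN, the matrix proteoglycan biglycan, was at -1.09, -0.88, -1.51, -1.02 and -1.12 in control and at -0.42, -0.02, -0.59, -0.43 and -0.95 in cortisol, a difference of 0.64 ± 0.20. NUDT16, a nucleotide diphosphatase and RNA-decapping enzyme, was at -0.27, -0.10, -0.83, -0.25 and -0.11 in control and at 0.24, 0.29, 0.35, 0.59 and -0.05 in cortisol, a difference of 0.60 ± 0.19. FZD2, a Wnt receptor, was at -3.09, -2.89, -3.36, -3.13 and -2.90 in control and at -2.73, -2.22, -2.60, -2.39 and -2.83 in cortisol, a difference of 0.52 ± 0.18. For NUDT16 and FZD2 every cortisol value lay above every control value. The differences within slide 3 (0.50 and 0.52) and slide 2 (0.42 and 0.30) therefore had to be above 0.

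SNRPA, a protein of the U1 splicing particle, was the only gene of the 20 with all cortisol values below all control values. It was at -1.91, -1.76, -1.74, -1.90 and -1.80 in control and at -2.36, -2.24, -1.99, -2.24 and -2.15 in cortisol, and the difference was -0.38 ± 0.14. ITGA4, the integrin alpha 4 chain of leukocytes and developing heart, was at -3.06, -3.63, -3.95, -3.80 and -3.58 in control and at -4.33, -3.66, -4.07, -4.29 and -4.98 in cortisol. Its probe cleared background on 5 of 5 arrays in control but on 1 of 5 in cortisol, so the cortisol values lie near the detection limit. The difference was -0.66 ± 0.26. TIE1, an endothelial receptor kinase, and CYBB, a subunit of the phagocyte NADPH oxidase, differed by -0.67 ± 0.28 and -0.60 ± 0.25. ATP6V1B2, a subunit of the vacuolar proton pump, and IRF3, a transcription factor of antiviral defence, differed by -0.47 ± 0.19 and -0.42 ± 0.18. All 6 genes had negative values within slide 3 and within slide 2, which for SNRPA follows from groups that did not overlap. The slides hold the same arrays by which the 20 genes were chosen.

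**Figure D2:**
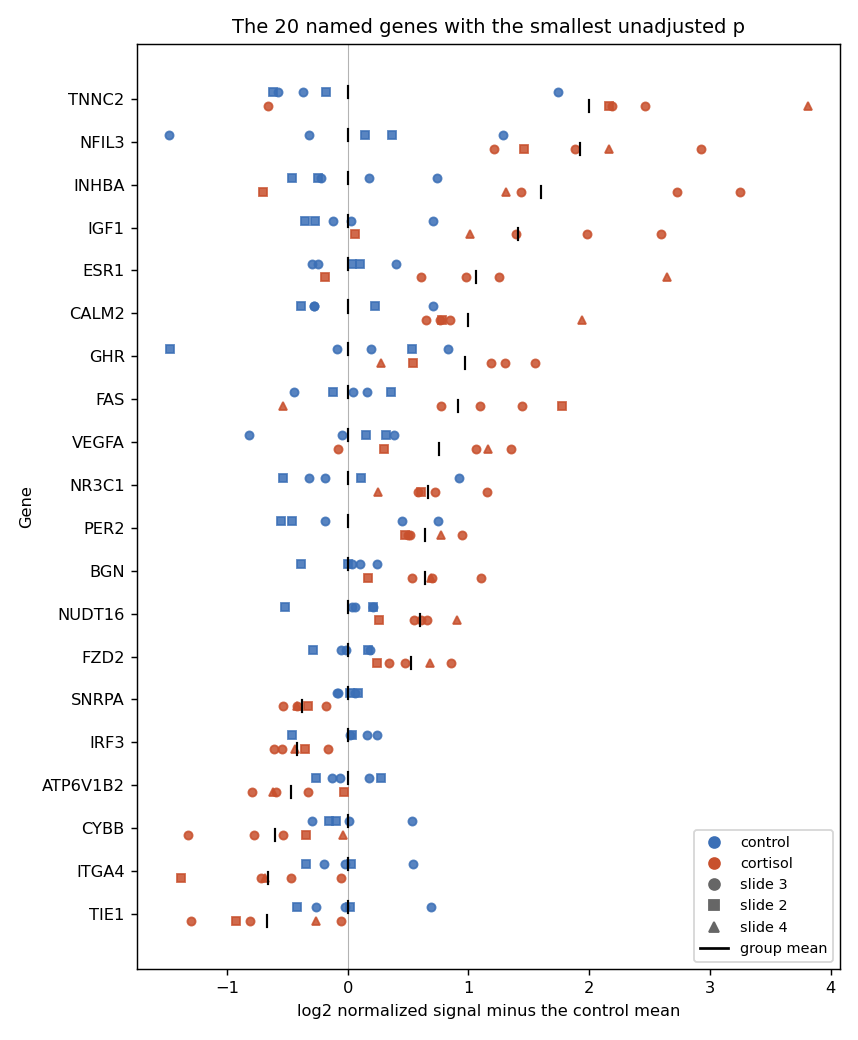
The 20 named genes with the smallest unadjusted p, ordered by difference. The horizontal axis is the log2 normalized signal minus the mean of the 5 controls. Each point is 1 array, coloured by treatment and shaped by slide, and the black ticks are group means. NFIL3 has all 5 cortisol points right of the control mean, TNNC2 splits into low and high lambs, and INHBA has its slide 2 cortisol lamb below all controls.

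The other genes of cortisol action differed by little or varied widely between lambs. HSD11B2 was at -3.61, -5.28, -5.00, -3.91 and -4.79 in control and at -3.04, -3.24, -4.21, -2.11 and -5.10 in cortisol, and was well above background on 2 and 3 of 5 arrays. The difference was 0.98 ± 0.53, with -0.21 within slide 2. HSD11B1 differed by -0.26 ± 0.32, NR3C2 by 0.04 ± 0.31, the receptor chaperone HSP90AA1 by 0.19 ± 0.23, and POMC, the precursor of corticotropin, by 0.34 ± 0.34. The interval for NR3C2 ran from -0.64 to 0.71. Of 6 tested genes of corticosteroid action, 5 were above 0 and 0 passed the test.

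Of 11 tested genes on a list of transcripts taken to respond to glucocorticoids in other tissues, 10 were above 0, with a median difference of 0.44. The median was 0.72 within slide 3, -0.09 within slide 2, 0.40 with slide as a block and 0.21 without cortisol 3, and 0 passed the test. NFIL3 led the list. MT3, a metallothionein, differed by 1.30 ± 0.78, a value set by cortisol 4 at 4.42, while the other 9 lambs lay between -0.72 and 0.71, and it was 0.42 without that lamb. CDKN1C, a growth-restraining cell cycle inhibitor, was at 4.16 and 4.25 in cortisol 2 and 3 and at 1.23 in cortisol 5, against 1.74 to 3.02 in control, a difference of 0.55 ± 0.53. BCL2L1, which protects cells from apoptosis, differed by 0.44 ± 0.31. Of 9 clock genes, 6 were above 0 with a median of 0.15, which was -0.0073 without cortisol 3. After NFIL3 and PER2 the next, CLOCK, differed by 0.31 ± 0.25.

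Of 4 tested sarcomere genes, 3 were above 0 with a median of 0.41 (0.49 within slide 3 and 0.044 within slide 2). Of 4 genes of calcium handling, 3 were above 0 with a median of 0.55 (0.88 within slide 3 and 0.80 within slide 2). The calcium handling median was 0.095 among members whose probes were detected on all arrays. MYH7 was at 4.53, 3.35, 3.59, 3.00 and 3.78 in control and at 4.62, 4.33, 4.10, 3.46 and 3.83 in cortisol. The groups overlapped, and the difference was 0.42 ± 0.30, with 0.72 within slide 3 and 0.15 within slide 2. NEB, nebulin of the thin filament, differed by 0.41 ± 0.27. TPM1 differed by 0.63 ± 0.53 over 3 control and 2 cortisol arrays, since its spot was a scanner outlier on the other 5, and the value was -0.23 without cortisol 4. S100A4, a calcium-binding protein of fibroblasts and other motile cells, differed by 2.19 ± 1.08, with cortisol lambs from -3.22 to 0.42. Control 2 and 3 were at -6.69 and -6.03, and control 1, 4 and 5 at -2.16, -1.79 and -2.13. Its probe cleared background on 3 of 5 arrays in control and 5 of 5 in cortisol. The S100A4 difference was 1.46 without control 2, and 0.34 ± 0.95 in the septum. GJA1, the main gap junction protein of the ventricle, differed by -0.17 ± 0.30 and the water channel AQP1 by 0.51 ± 0.37.

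Genes of fuel use had differences in both directions. Of 14 tested genes of fatty acid transport, storage and oxidation, 8 were above 0 with a median of 0.14, which was -0.056 without cortisol 2. CPT1B, the gate of mitochondrial fatty acid entry in muscle, was at 3.53, 3.29, 3.21, 3.72 and 3.25 in control and at 2.74, 2.98, 3.10, 3.37 and 3.22 in cortisol, so 3 cortisol lambs were below all controls, and the difference was -0.31 ± 0.18, with -0.57 within slide 3 and -0.010 within slide 2. SLC25A20, the carnitine carrier of the same route, differed by -0.28 ± 0.39, and APOA1, a lipoprotein component, by 0.69 ± 0.30. Of 16 tested glycolysis and glycogen genes, 13 were above 0 with a median of 0.20. PYGL, a glycogen phosphorylase, differed by 0.68 ± 0.30 (5 control and 4 cortisol arrays), GAPDH by 0.26 ± 0.18, HK1, a hexokinase, by 0.27 ± 0.19, and ENO3, the muscle enolase, by 0.19 ± 0.15. For ENO3 the cortisol lambs spanned 3.93 to 4.06, within the control range of 3.56 to 4.03 save for the highest.

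Mitochondrial genes were likewise mixed. Of 7 tested oxidative phosphorylation genes, 3 were above 0, with a median of -0.07. The ATP synthase subunits ATP5MC2 and ATP5PO differed by 0.51 ± 0.26 and 0.53 ± 0.30, and COX5A, of cytochrome c oxidase, by -0.37 ± 0.32. Of 7 genes on a list of mitochondrial enzymes and carriers, 6 were above 0 with a median of 0.04, though IDH1 on that list is not a mitochondrial enzyme. SFXN1, a mitochondrial serine carrier, differed by 0.45 ± 0.24. IDH1, an isocitrate dehydrogenase of the cytosol and peroxisomes, differed by 0.58 ± 0.31 (0.040 within slide 3 and 1.18 within slide 2). SLC25A4, the adenine nucleotide carrier of heart, differed by 0.30 ± 0.25 over 4 control and 3 cortisol arrays. PPARGC1A, a coactivator that promotes mitochondrial growth, was at 1.73, 2.23, 4.15, 1.32 and 3.53 in control and at 4.89, 2.10, 4.12, 0.23 and 1.36 in cortisol. Its means were nearly equal, and the difference of -0.05 ± 0.87 was 1.94 within slide 3 and -2.48 within slide 2.

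**Figure D3:**
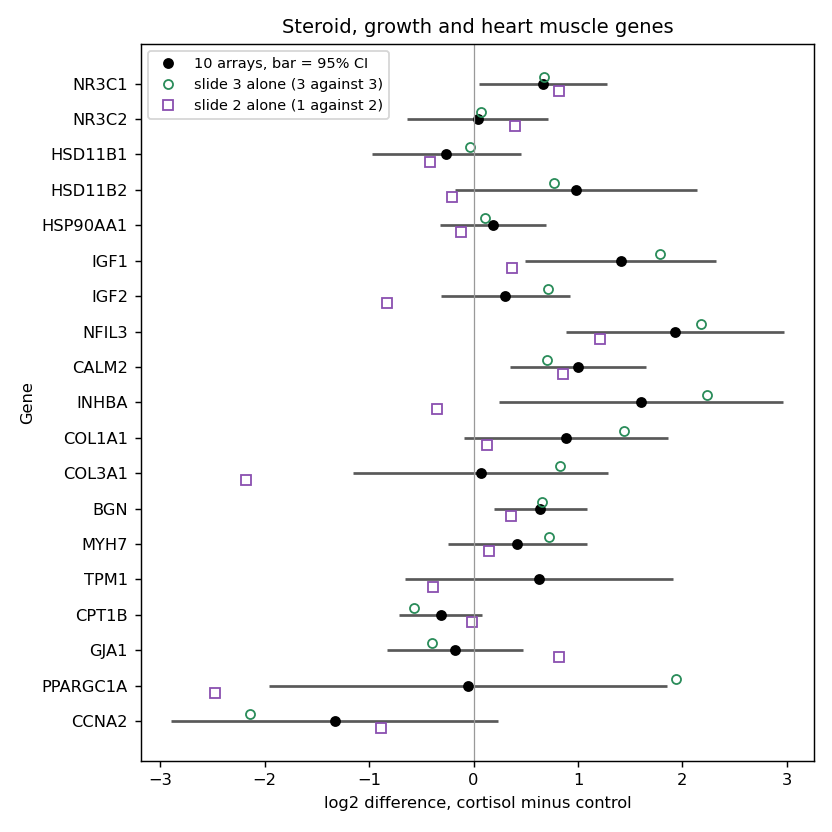
Log2 difference, cortisol minus control, for genes of steroid action, growth and heart muscle. Black points use all 10 arrays with their 95% confidence interval, green circles slide 3 alone (3 against 3 arrays) and purple squares slide 2 alone (1 cortisol against 2 control arrays). TPM1 has no slide 3 value. PPARGC1A lies at 1.94 on slide 3 and at -2.48 on slide 2, while NFIL3 is above 0 on both.

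The fibroblast and matrix genes showed how strongly the cortisol lambs differed from each other. All 8 tested collagens had a difference above 0, with a median of 0.47, and 0 passed the test. Relative to the control mean, the median of the 8 collagens was 1.09, 1.14 and 0.91 in lambs 1, 2 and 3 of the cortisol group, 0.12 in lamb 4 and -0.90 in lamb 5, against -0.14 to 0.27 in the controls. The 3 cortisol lambs on slide 3 were above every control, cortisol 4 was among the controls and cortisol 5 was below them. The median difference was therefore 0.97 within slide 3, -0.88 within slide 2 and 0.30 with slide as a block, and leaving out 1 array at a time gave 0.27 (without cortisol 2) to 0.79 (without cortisol 5). COL1A1, the alpha 1 chain of type I collagen, was at -1.33, -1.73, -2.28, -1.73 and -1.80 in control and at -0.35, -0.55, 0.45, -2.08 and -1.91 in cortisol, a difference of 0.89 ± 0.45. COL3A1 was at 2.15, 1.91, 2.23, 2.82 and 2.07 in control and at 3.41, 3.30, 2.65, 2.19 and -0.03 in cortisol, a difference of 0.07 ± 0.56. COL12A1 differed by 0.51 ± 0.46, and a probe the array names COL6A1, though it describes an alpha 3 chain, by 0.75 ± 0.43.

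The list median of other matrix proteins was likewise higher in the cortisol lambs on slide 3 than in cortisol 4 and 5. Single genes did not all follow: BGN was at -0.43 in cortisol 4 and -0.59 in cortisol 3. All 5 tested matrix proteins were above 0 with a median of 0.29, at 0.63, 0.99 and 0.85 in the cortisol lambs on slide 3 and at -0.60 and -0.18 in cortisol 4 and 5. FBLN1, fibulin, differed by 0.42 ± 0.31 and DCN, decorin, by 0.29 ± 0.30. Of the inhibitors of matrix proteases, TIMP1 was at 3.43, 3.57, 3.01, 3.15 and 3.03 in control and at 3.41, 4.86, 5.76, 3.29 and 2.93 in cortisol. Only cortisol 2 and 3 stood above the controls, and the difference was 0.81 ± 0.48. TIMP3 and TIMP2 differed by 0.49 ± 0.44 and 0.25 ± 0.26. All 8 tested fibroblast markers, which include several of these matrix genes, were above 0 with a median of 0.50, 0.85 within slide 3 and -0.13 within slide 2. In whole tissue, more cells of a type and more RNA per cell cannot be told apart.

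Signalling genes of matrix and vessel growth were mostly above 0, as were 62.0% of all 613 named genes tested. Of 20 tested genes of TGF-beta, activin and BMP signalling, 14 were above 0 with a median of 0.34, which was 0.33 within slide 3, 0.23 within slide 2 and 0.17 without cortisol 2. Besides INHBA, the signal transducers SMAD2 and SMAD4 differed by 0.46 ± 0.21 and 0.43 ± 0.23, and the ligand BMP6 by 0.73 ± 0.36. All 6 tested Wnt and Notch genes were above 0 with a median of 0.48, which was 0.26 without cortisol 3. After FZD2, the receptor NOTCH1 differed by 0.59 ± 0.46 and the ligand WNT5A by 0.65 ± 0.58, at -0.04 and 0.06 in cortisol 2 and 3 and at -3.07 to -2.07 in the other 3. Of 14 genes of the insulin and IGF axis, 10 were above 0 with a median of 0.23, which was 0.096 without cortisol 3. The binding proteins IGFBP6 and IGFBP5 differed by 0.60 ± 0.41 and 0.45 ± 0.37, and IGF2, the fetal growth factor, by 0.31 ± 0.28.

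Of 20 tested growth factors and their receptors, 15 were above 0 with a median of 0.23. HIF1A, the oxygen-regulated factor upstream of VEGFA, was at -1.42, -2.37, -1.92, -2.75 and -2.48 in control and at -1.69, -0.82, 0.00, -2.90 and -1.18 in cortisol. Cortisol 2, 3 and 5 lay above all controls and cortisol 4 below them, and the difference was 0.87 ± 0.47. ERBB2, a neuregulin co-receptor of cardiomyocytes, differed by 0.42 ± 0.26. EDN1, the vasoconstrictor endothelin, differed by 1.07 ± 0.51 (1.62 within slide 3, -0.15 within slide 2), its receptor EDNRB by 0.62 ± 0.39, the endothelial nitric oxide synthase NOS3 by 0.42 ± 0.28, and the inducible synthase NOS2 by -0.79 ± 0.50. The NOS2 probe cleared background on 4 of 5 arrays in control and 1 of 5 in cortisol.

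Among adhesion genes 6 of 12 were above 0. ICAM1, a leukocyte ligand of endothelium, differed by 1.34 ± 0.69. Its lowest values were -6.32 and -5.47 in control 3 and 5 and -5.50 in cortisol 1. CLDN3, a claudin, differed by 0.67 ± 0.32, and ITGB6, an integrin that activates TGF-beta, by -0.64 ± 0.34. Cytoskeletal genes were above 0 in 7 of 9, with VIM, vimentin, at 0.51 ± 0.33, MYL6, a myosin light chain, at 0.57 ± 0.33 and MYL9, the smooth muscle light chain, at -0.55 ± 0.40. Of 9 tested genes of apoptosis and survival, 7 were above 0 with a median of 0.14. The death receptor FAS was at -3.59, -4.20, -3.87, -3.71 and -3.39 in control and at -2.65, -2.98, -2.31, -4.28 and -1.97 in cortisol. Cortisol 4 was below all controls and the other 4 above them, and the difference was 0.91 ± 0.38. The survival gene BCL2 differed by 0.80 ± 0.39. ESR1, with cortisol 4 at 1.63 and cortisol 5 at -1.20 against -1.31 to -0.61 in control, differed by 1.06 ± 0.43, with 0.99 within slide 3 and -0.26 within slide 2.

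Over all 10 arrays, cell cycle genes lay mostly below 0. Of 8 tested genes of G1, S phase and replication, 7 were below 0 with a median of -0.14, and 3 of 3 G2 and mitosis genes were below 0. Within slide 3 the median of the former list was 0.017 with 4 of 8 above 0, and within slide 2 it was -0.19. The G2 and mitosis median was -0.99 within slide 3 and -0.61 within slide 2. CCNA2, cyclin A2, was at -4.01, -1.22, -3.76, -1.63 and -4.59 in control and at -5.05, -2.92, -5.32, -3.52 and -5.06 in cortisol, and was well above background on 3 of 5 and 2 of 5 arrays. Controls 2 and 4 stood above all other lambs, and the difference was -1.33 ± 0.71, -2.14 within slide 3 and -0.89 within slide 2. HMMR, a mitotic spindle protein, differed by -0.29 ± 0.33, the kinase CDK2 by -0.34 ± 0.25, and the replication clamp PCNA by -0.26 ± 0.24.

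Housekeeping groups had small medians. These were 0.09 for 21 ribosomal proteins (13 above 0), 0.23 for 9 translation factors (7 above 0), 0.02 for 13 genes of the proteasome and protein breakdown (7 above 0), 0.07 for 10 chaperones (7 above 0), 0.16 for 7 antioxidant genes (6 above 0), -0.07 for 5 RNA processing genes (2 above 0) and 0.01 for 9 lysosome and proton pump genes (5 above 0). The ribosomal median was 0.43 within slide 3 and -0.25 within slide 2, a gap in the same direction as that of the collagens.

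**Figure D4:**
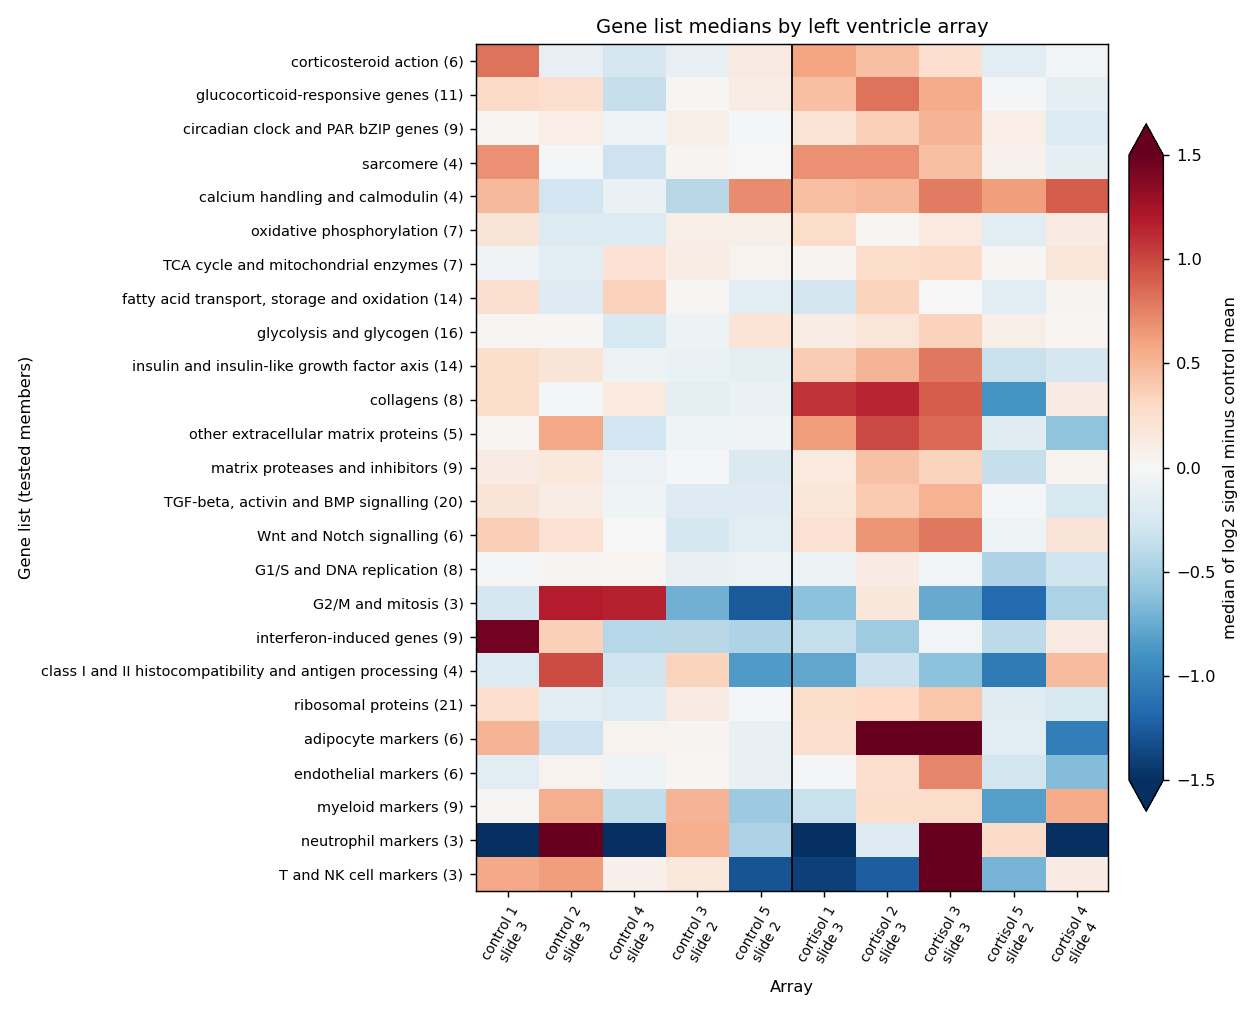
Median over the tested members of each gene list (number in brackets) of the log2 signal minus the control mean, for the 10 left ventricle arrays ordered by group and slide. Red is above the control mean and blue below, and the colour scale ends at -1.5 and 1.5. The collagen row reads 1.09, 1.14 and 0.91 in the cortisol lambs on slide 3 and -0.90 in the one on slide 2, and the neutrophil and interferon rows follow single lambs rather than groups.

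Several immune programmes were high in particular lambs of both groups. ISG15, a ubiquitin-like protein induced by interferon, was at 4.28, 0.29, -2.70, -3.34 and -3.15 in control and at -2.64, -3.97, -3.28, 2.70 and -3.24 in cortisol. Control 1 and cortisol 4 were the highest, control 2 was between, and the other 7 lambs were low. In the septum of the same lambs ISG15 was at 3.97, -0.17, -2.37, -3.11 and -2.62 in control and at -2.87, -3.56, -2.94, 2.17 and -3.61 in cortisol, so the same 3 lambs led. MX1, an antiviral GTPase, was at 3.55 and 0.13 in control 1 and 2 and at 2.29 in cortisol 4, and at -3.32 to -1.53 in the other 7. MX2 and RTP4, also interferon-induced and chosen after their values were seen, were at 1.33 and 3.34 in control 1 and at 0.56 and 2.07 in cortisol 4. The MX2 probe cleared background on 4 of 5 arrays in control and 1 of 5 in cortisol. The group differences were -1.16 ± 1.60 for ISG15 and -1.28 ± 1.29 for MX1, and 7 of 9 interferon-related genes were below 0 with a median of -0.24. Without control 1 the ISG15 difference was 0.14 and the median of the 9 genes was also 0.14.

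The cathelicidins, antimicrobial peptides stored in neutrophils, followed other lambs. CATHL3 was at -6.12, 2.05, -2.44, -4.62 and -3.80 in control and at -5.90, -2.64, 0.18, -6.80 and -2.52 in cortisol. Control 2 and cortisol 3 were the highest and cortisol 4 the lowest. The septum had the same order at its ends, with 2.08 in control 2, 1.21 in cortisol 3 and -6.96 in cortisol 4. CATHL1B and BAC5, close relatives whose probes may share targets, were at 2.97 and 2.82 in control 2, at 1.09 and 1.5 in cortisol 3 and at -6.79 and -6.14 in cortisol 4. The group differences of CATHL3, CATHL1B and BAC5 were -0.55 ± 1.59, -0.72 ± 1.66 and -0.61 ± 1.48. The immediate early gene FOS was high in control 2 and cortisol 3, as the cathelicidins were, and also in control 3 and cortisol 5. It was at 0.18 and -0.49 in control 2 and 3 and at 2.43 and 1.33 in cortisol 3 and 5. In the rest FOS was at -4.39 to -2.19, and the group difference was 1.67 ± 1.21. JUNB, another immediate early gene, was at 1.75 in cortisol 3 and at -2.45 to -0.71 in the other 9, and the chemokine CXCL1 was at 6.56 in cortisol 4 and at 2.33 to 4.05 in the other 9. The number of minutes from birth to sampling was not given per lamb, and its part in these values was not tested.

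Markers of other immune cells differed in both directions. Of 9 myeloid markers 5 were above 0 with a median of 0.01, and CD14, of monocytes, differed by 0.50 ± 0.47. Of 3 T cell and natural killer markers 1 was above 0. IL2RA, an interleukin receptor chain, and CD3D, of the T cell receptor complex, differed by -0.57 ± 0.48 and -0.52 ± 0.62. All 4 tested genes of antigen presentation were below 0 with a median of -0.39, which was -0.72 within slide 3, -0.77 within slide 2 and -0.13 without control 2. OVAR-DQA1, a class II chain, was at -1.64, -0.20, -0.59, -1.35 and -1.90 in control and at -2.27, -2.33, -1.96, -0.68 and -2.38 in cortisol. Cortisol 4 was within the control range and the other cortisol lambs below it, and the difference was -0.79 ± 0.40. The immunoproteasome subunit PSMB8 differed by -0.48 ± 0.55. HBB, beta globin of red cells, differed by -0.08 ± 0.56, with control 2 at 6.92 and the other 9 lambs at 3.56 to 5.04. Endothelial markers were above 0 in 2 of 6, with a median of -0.06. That median was 0.39 within slide 3, with 5 of 6 above 0, and -0.20 within slide 2, with 3 of 6.

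Fat cell genes stood out in ventricle samples of some lambs. UCP1, the uncoupling protein of brown fat and chosen after its values were seen, was at -1.28, -5.33, -1.17, -0.88 and -6.0 in control and at -2.48, 1.52, -1.26, -3.95 and -6.02 in cortisol. In the septum of the same lambs it lay between -7.35 and -3.58. FABP4, a fatty acid carrier of fat cells, was at -2.73, -5.84, -2.71, -1.73 and -5.23 in control and at -3.79, 0.52, 0.00, -5.72 and -4.97 in cortisol. It was well above background on 3 of 5 arrays in each group, as UCP1 was on 3 of 5 and 4 of 5. The lambs with the highest FABP4 were cortisol 2 and 3, whose collagen and TIMP1 values were also high. Cortisol 1 had a collagen median of 1.09 relative to the control mean, with FABP4 at -3.79. Control 4, next in FABP4 at -1.73, had a collagen median of 0.15. In the septum the collagen median was 1.08, 1.08 and 0.79 in cortisol 1, 2 and 3. C3, the complement component, was at 2.65 and 3.49 in cortisol 2 and 3 in the ventricle, against -2.21 to 0.52 in the other 8. C3 was likewise chosen after its values were seen. All 6 tested adipocyte markers were above 0 with a median of 0.34, which was 0.014 without cortisol 2 and, within slide 2, -0.19 with 0 of 6 above 0. Relative to the control mean that list's median was 0.26, 1.49 and 1.53 in the cortisol lambs on slide 3 (1 to 3) and -1.04 and -0.17 in lambs 4 and 5. The part of fat tissue in the matrix and lipid gene values was not tested. LEP, leptin, and LPL, lipoprotein lipase, differed by 0.36 ± 0.33 and 0.26 ± 0.38.

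**Figure D5:**
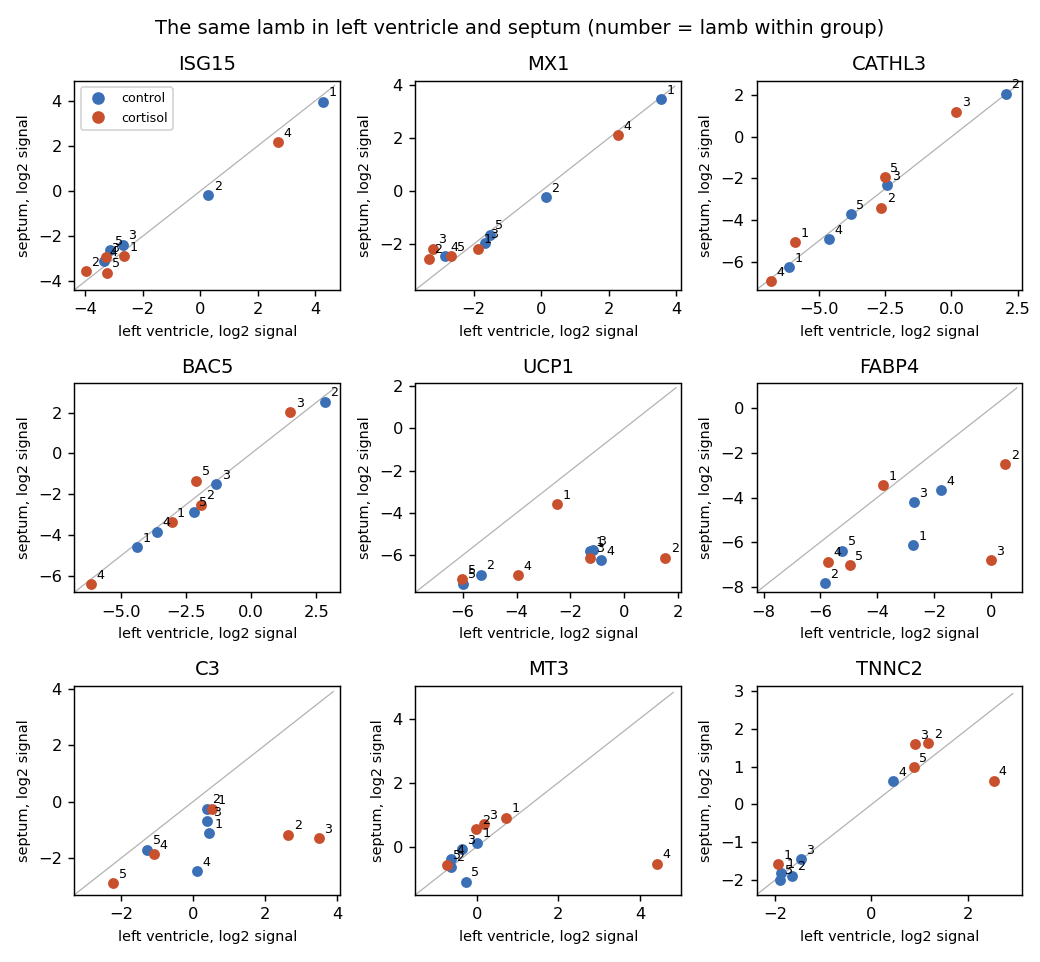
Values of 9 genes in the left ventricle (horizontal) and the septum (vertical) of the same lamb, both as log2 normalized signal, numbered by lamb within its group, with the line of equality. ISG15, MX1 and the cathelicidins CATHL3 and BAC5 lie along the line, with the same lambs high in both regions. UCP1 lies below it in all 10 lambs, C3 lies farthest below it in cortisol 2 and 3, and MT3 lies below it in cortisol 4, at 4.42 in ventricle and -0.53 in septum.

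Ventricle and septum were compared over 20 arrays, to ask whether the difference after cortisol depended on the region. The arrays with the same treatment and number were taken as 1 lamb, and both regions thus share the same 10 animals. No probe passed, with 0 of 10069 (0.00%) without and 0 of 9929 (0.00%) with the lamb as a block at a limma adjusted p under 0.05. At an unadjusted p under 0.05 there were 38 and 352 probes. ITGA4 had a difference of -0.66 ± 0.26 in ventricle and 0.34 ± 0.22 in septum, a gap of 1.00 ± 0.26 with the lamb block (adjusted p = 0.997 in limma). Its probe cleared background on 1 of 5 cortisol arrays in ventricle. The ITGA4 values in septum were also low, -5.06 to -4.67 in control and -5.21 to -4.06 in cortisol. Whether those cleared background is not given here. SNRPA was at -0.38 in ventricle and 0.12 in septum, a gap of 0.49 ± 0.24, and PER2 at 0.64 and 0.19, a gap of -0.45 ± 0.18. TNNC2, at 2.00 and 1.95, BGN, at 0.64 and 0.74, and GHR, at 0.97 and 0.91, had nearly equal differences in the 2 regions. NFIL3 was at 1.93 and 1.25 and IGF1 at 1.41 and 0.89. The collagens had medians of 0.47 in ventricle and 0.44 in septum, each with 8 of 8 above 0. Since the animals are shared, agreement between the regions adds no further lambs.

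Only 1594 of 15008 probes (10.6%) could be named. Among the 20 probes with the smallest unadjusted p, 1 was named, NFIL3. The smallest p of all, 0.000253, belonged to the unnamed probe A_70_P067491, with a difference of 0.93 ± 0.18. The next unnamed probe with a higher cortisol mean, A_70_P007891, was at 1.01 ± 0.21. The leading ones with a lower mean, A_70_P069881 and A_70_P067126, were at -0.82 ± 0.17 and -1.26 ± 0.28. Their genes are not known here.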

How the data were processed

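Per the labels' protocols, total RNA was extracted with Trizol and columns, and 100 ng was labelled with Cy3 for each array. The processed intensity of each spot was deposited as Feature Extraction (Agilent, 10.1.1.1, per the file headers) wrote it, background-subtracted and with no scaling between arrays. The deposited value table holds log2 intensity whose normalization is not given in the sources used here. Limma, with no version, is named in the submitters' processing notes. The value table served as an alternative, as did raw spot intensity with its deposited local background intensity (normexp, offset 50).

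Outlier spots were left out (2 to 68 of 15208 per array), log2 processed signal was scaled to each array's 75th percentile, and spots of a probe were averaged. Probes well above background on 5 or more of 10 arrays (10 of 20 for the comparison of regions) were fitted in R 4.3.3 with limma 3.58.1 (two-sided), and p-values were adjusted by Benjamini-Hochberg over all probes at a threshold of 0.05. The design had 1 term for treatment. R used statmod 1.5.0 and data.table (version 1.17.8), and Python 3.11.15 with matplotlib 3.10.9 drew the figures. The number of arrays limits the precision, and p-values rest on 5 lambs a group. 0 columns belonged to other samples.

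Names came from the files' accessions, symbols and descriptions, brought to the symbols of the RefSeq table of sheep assembly ARS-UI_Ramb_v3.0. Probe sequences are those of the deposited files, and no coordinates are given because the files name no build. Named genes are the 20 with the smallest unadjusted p, up to 4 members with the smallest p of each gene list described, and a set of heart and steroid genes, of which 1 is not reported here. The comparison, members and lists were chosen with earlier results of these data known. Of 50 lists, those with 3 or more tested members are described by counts and medians.

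LV and septum arrays of 1 treatment and number deviated together (r across probes 0.447 to 0.813, own partner highest in 10 of 10) and were treated as the same lamb. Arrays of control and cortisol with 1 number had r of 0.072 to 0.288, above 0.1 for 4 of 5 and with the own number highest in 3 of 5. Not all 5 passed 0.1, so no block was used for them. Scaling, background, filter, slide, weighting, shared spread, replicate block and each array in turn were varied. Data of term fetuses from another series were not analysed here.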

Additional observations from a re-analysis of the deposited data

Results flagged for a closer look

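Within each group of 5 lambs, the gap between the highest or lowest array and its neighbour was set against the group's range for every named gene other than those chosen after their values were seen, and a gap above 0.71 of the range marked an outlying array (Dixon's 95% limit). Of 199 groups tested, 9 had such an array, where chance alone gives about 1 in 20. Cortisol 4 accounted for 6 of the 9, the array on slide 4.

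In cortisol 4, MT3 was at 4.42, CALM2 at 2.72, HSP90AA1 at 1.36 and OVAR-DQA1 at -0.68, all above the other 4 cortisol lambs. The interferon-induced genes ISG15 and MX1 were at 2.70 and 2.29 in that lamb. JUNB was at 1.75 in cortisol 3, above the other cortisol lambs. Among controls, TNNC2 was at 0.45 in control 4, above the rest, and NUDT16 was at -0.83 in control 3, below the rest. In the septum of the same lambs ISG15 in cortisol 4 (2.17), JUNB in cortisol 3 (1.59) and TNNC2 in control 4 (0.61) were again the highest of their group, and MT3 in cortisol 4 was at -0.53.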

How the results depend on the processing

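For the ventricle, 0 probes passed the adjusted test under each of 25 alternatives in limma. Probes at an unadjusted p under 0.05 ranged from 227 (normexp background) to 1333 (array weights), against 508, and the lowest adjusted p from 0.273 (slide 3 alone) to 1.00. Without each array in turn 0 passed and unadjusted counts ran from 302 (without control 3) to 1045 (without cortisol 5). With the replicate number as a block, although the numbers did not pair the lambs (own number highest in 3 of 5), 0 passed and 602 had an unadjusted p under 0.05. For the comparison of regions 0 passed under each of 15 alternatives, the lamb block included, where 352 probes had an unadjusted p under 0.05. Of 105 named genes, 57 kept the sign of their difference under all alternatives that gave a value. NFIL3, IGF1, CALM2, BGN, FZD2, SNRPA and NR3C1 were among them. For FZD2 and SNRPA, whose groups did not overlap, leaving out arrays or using 1 slide could not turn the sign. The size of the difference was less stable than its sign. Its smallest size among the alternatives was 0.57 for NFIL3 (against 1.93), 0.37 for IGF1 (1.41) and 0.70 for CALM2 (1.00). It was 0.36 for BGN (0.64), 0.16 for FZD2 (0.52), -0.12 for SNRPA (-0.38) and 0.41 for NR3C1 (0.66).

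Slide 2 alone, where cortisol 5 is the only cortisol lamb, turned the sign of 40 genes. There the differences were INHBA -0.35, ESR1 -0.26, HSD11B2 -0.21, POMC -0.67, HSP90AA1 -0.12, MT3 -0.40, CDKN1C -0.94, TPM1 -0.39, EDN1 -0.15, SLC25A20 0.0012, ATP5MC2 -0.28, ATP5PO -0.32, SLC25A4 -0.17, GAPDH -0.014, IGFBP6 -0.32, COL6A1 -0.28, FBLN1 -0.12, DCN -0.13, TIMP1 -0.094, TIMP3 -0.59, TIMP2 -0.68, NOTCH1 -0.14, WNT5A -1.01, MYL6 -0.52, VIM -0.29, IFNAR2 0.45, CXCL1 -0.81, CD14 -0.61, IL2RA 0.69, CATHL1B 0.094, CATHL3 0.60, LEP -0.14, LPL -0.093, FABP4 -1.0, HBB 0.86, IGF2 -0.83, COL3A1 -2.18, GJA1 0.82, UCP1 -2.44 and C3 -1.77. Slide 3 alone gave CATHL1B 0.40, BAC5 0.56, CATHL3 0.11 and PPARGC1A 1.94. With slide as a fixed block TPM1 was -0.39, CATHL1B 0.30, BAC5 0.28, CATHL3 0.26, COL3A1 -0.10 and PPARGC1A 0.58, and as a random block COL3A1 was -0.00042 and PPARGC1A 0.10. Array weights gave HSP90AA1 -0.022, HSD11B1 0.067 and PPARGC1A 0.51, normexp SLC25A20 0.090, IL2RA 0.030, CD3D 0.046, NR3C2 -0.040 and MX2 0.093, the deposited table PYGL -0.019 and NR3C2 -0.041, and quantile normalization SLC25A4 -0.14. The causes were not tested.

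Leaving out each array in turn gave ranges that cross 0 for HSP90AA1 (-0.0058 to 0.29), TPM1 (-0.23 to 1.49), ISG15 (-2.36 to 0.14), CATHL1B (-1.72 to 0.54), BAC5 (-1.57 to 0.54), CATHL3 (-1.48 to 0.71), LPL (-0.0025 to 0.59), HBB (-0.35 to 0.49), NR3C2 (-0.18 to 0.24), COL3A1 (-0.21 to 0.65), GJA1 (-0.36 to 0.030), PPARGC1A (-0.64 to 0.52), MX2 (-1.35 to 0.71), UCP1 (-0.50 to 1.39) and C3 (-0.038 to 1.39). Array signal limits the dim probes: where a probe was not well above background, its values lie near the detection limit.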
